A study of Mus musculus with 4 samples.

Results

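The comparison described here is that of fibroblasts without the chromatin remodeller Lsh and WT fibroblasts, read repeat by repeat. Both cultures were grown from tail-tips of adult C57BL/6J mice and transformed with SV40, and RNA was sequenced from 1 WT and 1 Lsh-/- culture, 2 of the 4 samples of the study. The other 2 samples are WT and Lsh-/- whole embryos at E13.5, also C57BL/6J by their labels, and are used only for comparison. Each fibroblast sample has 6 count tables, one each for LTR loci, for LINE loci and for an interval of 1 kb that begins 10 kb upstream or downstream of each of these. All loci listed in either fibroblast library were taken, with a count of 0 where a library does not list a locus. This gave 4969 LTR loci, 96376 LINE loci and 345135 flanking intervals, of 6216, 145916 and 488561 in the whole series.

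Lsh, encoded by Hells, is a helicase of the SNF2 family that is needed for normal DNA methylation of repeats in the mouse. Long terminal repeats (LTRs) are the promoters of endogenous retroviruses. Intracisternal A-particles (IAPs) are a young family of such elements in the mouse that still moves, and their LTRs are normally methylated and silent in somatic cells. LINE-1 elements instead carry an internal promoter at their 5′ end, and most copies are truncated there, so a read on a short LINE often belongs to a transcript that started elsewhere.

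With 1 culture per genotype no difference between the libraries has a replicate check, and no test was made. Shares of loci carry 95% Wilson intervals, which cover counting over loci only. Counts over the 6 tables came to 29787223 for WT and 19216257 for Lsh-/-. In WT, 7 intervals over AY036118 on chromosome 17 took 36.3% of the LINE flank counts, against 3.07% in Lsh-/- fibroblasts, so libraries were scaled by TMM, a trimmed mean of ratios, taken over LINE-1 flanks. Over the exons of Hells, 2 neighbouring intervals held 636 and 301 WT counts and 0 in the Lsh-/- library, while the interval with the most counts held 1031 and 1079. The Lsh-/- library thus had reads over the outer exons of its targeted gene and none in these 2 intervals between them. The WT line had 16828 counts over Xist and 12 around LINE loci on chromosome Y, the Lsh-/- line 53 and 5402. The lines thus differ in sex as well as in genotype, and genotype, sex and culture cannot be told apart. Several fibroblast markers were abundant in both libraries and others were near 0. Of 16 fibroblast markers, 14 had an interval over an exon and 13 of these had at least 10 counts, with Vim at 46510 WT and 29828 Lsh-/- counts and Sparc at 32054 and 23842. Dcn held 2 and 10 counts and Fap 0 and 4, and Thy1 and Lum had no interval.

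Reads appeared on many more LTR loci in Lsh-/- than in WT fibroblasts. Among the 15 LTR names with at least 20 loci of at least 10 counts, IAP names had the largest shares read in Lsh-/- only. WT fibroblasts had reads on 2032 LTR loci and Lsh-/- fibroblasts on 4476. Of all 4969 listed loci, 2937 (59.1%, 57.7 to 60.5) had reads in Lsh-/- fibroblasts only and 493 (9.92%) in WT only. For all LINE loci the balance was the other way, with 28685 of 96376 (29.8%) in Lsh-/- only and 34079 (35.4%) in WT only. It differed by place. Outside annotated genes 53.2% of 28083 were in Lsh-/- only and 26.8% in WT only, in introns 20.3% and 40.2% of 64980, and over exons 16.3% and 12.9% of 3313.

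**Figure D1:**
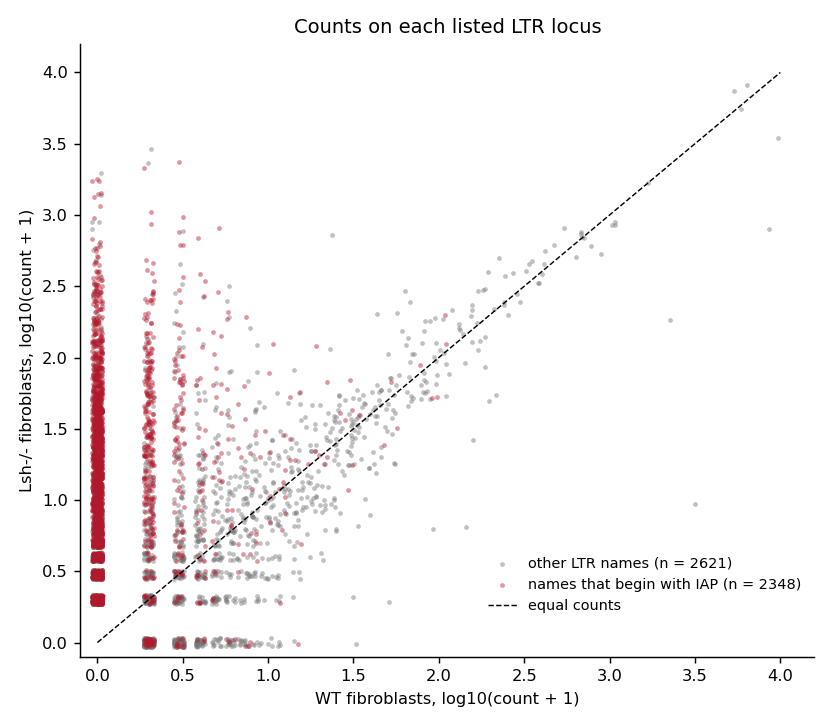
Counts on each of the 4969 listed LTR loci in WT (x axis) and Lsh-/- fibroblasts (y axis), as log10(count + 1), with small random offsets so that equal counts do not hide each other; 2348 loci with IAP names are red and 2621 others grey. IAP loci stand in columns at the left, at 0 to a few WT counts and up to 2261 in Lsh-/- fibroblasts, while most loci with many WT counts are grey and lie near the dashed line of equal counts, with a few grey points far below it, among them one at 3245 WT and 8 Lsh-/- counts.

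To see what these elements look like, the first 200 bases are shown of the strongly raised locus (log2 fold change above 5) with the most Lsh-/- counts for each of the 8 LTR names with the most such loci, and of a RLTR10C locus as a contrast, which was added after its values were seen. They are read 5′ to 3′ on the strand of the element from mm9, with CpG, the site of DNA methylation in mammals, in capitals.
IAPLTR1_Mm: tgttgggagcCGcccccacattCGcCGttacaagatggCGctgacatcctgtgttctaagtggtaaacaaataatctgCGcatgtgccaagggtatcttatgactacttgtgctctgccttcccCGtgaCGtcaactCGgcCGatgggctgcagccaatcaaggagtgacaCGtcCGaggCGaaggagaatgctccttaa
IAPLTR1a_Mm: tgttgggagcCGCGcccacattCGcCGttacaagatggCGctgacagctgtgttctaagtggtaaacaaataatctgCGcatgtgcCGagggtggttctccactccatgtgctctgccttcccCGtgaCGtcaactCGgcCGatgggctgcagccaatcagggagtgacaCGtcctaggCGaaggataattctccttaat
IAPLTR2_Mm: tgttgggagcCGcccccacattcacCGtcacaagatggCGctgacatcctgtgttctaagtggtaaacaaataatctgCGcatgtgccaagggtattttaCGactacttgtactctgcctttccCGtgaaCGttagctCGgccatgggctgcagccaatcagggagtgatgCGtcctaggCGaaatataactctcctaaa
IAPLTR2a: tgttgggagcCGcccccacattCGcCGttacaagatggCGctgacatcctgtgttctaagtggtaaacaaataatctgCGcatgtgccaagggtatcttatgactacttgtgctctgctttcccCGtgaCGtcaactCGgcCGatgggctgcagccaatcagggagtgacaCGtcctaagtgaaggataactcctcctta
IAPLTR2b: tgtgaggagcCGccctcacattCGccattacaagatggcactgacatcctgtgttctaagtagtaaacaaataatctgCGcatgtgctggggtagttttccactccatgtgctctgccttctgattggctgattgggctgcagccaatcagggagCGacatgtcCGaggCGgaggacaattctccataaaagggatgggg
IAPEY_LTR: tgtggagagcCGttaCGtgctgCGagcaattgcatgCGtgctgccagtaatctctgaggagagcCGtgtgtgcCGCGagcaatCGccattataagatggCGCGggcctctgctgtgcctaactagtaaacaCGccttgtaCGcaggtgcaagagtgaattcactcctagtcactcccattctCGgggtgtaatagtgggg
RLTR10D: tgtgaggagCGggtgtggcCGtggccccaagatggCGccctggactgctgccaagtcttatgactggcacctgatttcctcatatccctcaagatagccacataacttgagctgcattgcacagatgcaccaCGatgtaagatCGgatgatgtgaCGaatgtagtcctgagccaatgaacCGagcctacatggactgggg
RLTR1B: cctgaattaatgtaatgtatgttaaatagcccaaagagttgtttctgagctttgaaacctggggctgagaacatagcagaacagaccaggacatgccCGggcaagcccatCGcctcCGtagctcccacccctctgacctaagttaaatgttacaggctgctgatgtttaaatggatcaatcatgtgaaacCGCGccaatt
RLTR10C: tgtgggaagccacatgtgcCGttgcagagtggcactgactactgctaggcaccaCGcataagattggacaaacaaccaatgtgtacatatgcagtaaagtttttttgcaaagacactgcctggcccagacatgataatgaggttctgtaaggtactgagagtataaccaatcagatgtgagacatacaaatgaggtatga

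Some of the printed IAP starts are alike. The IAPLTR2a element shares its first 118 bases with the IAPLTR1_Mm element, the IAPLTR2_Mm element 23 and the IAPLTR1a_Mm element 13, but the IAPLTR2b and IAPEY_LTR elements only 3, as many as the RLTR10D and RLTR10C elements. All but the RLTR1B element begin with TG, the terminal bases of a retroviral LTR, and 84.6% of 2087 LTR loci with enough counts do so. The IAPLTR1a_Mm and IAPEY_LTR stretches hold 13 CpG each, the IAPLTR1_Mm stretch 12, the RLTR10D stretch 7 and the RLTR10C stretch 2. The IAPLTR1_Mm element lies at chr3:73537106-73542360 on the plus strand, and the IAPLTR1a_Mm element at chr1:171472551-171479021 on the plus strand. The IAPLTR2_Mm element lies at chr15:12456529-12461574 on the plus strand, in an intron of Pdzd2, and the IAPLTR2a element at chr4:143573862-143578733 on the minus strand. The IAPLTR2b element lies at chr4:113805854-113814057 on the minus strand, and the IAPEY_LTR element at chr9:93218364-93222530 on the plus strand. The RLTR10D element lies at chr9:12097493-12104430 on the plus strand, the RLTR1B element at chr6:132912016-132920415 on the minus strand and the RLTR10C element at chr3:96117386-96124499 on the minus strand. Apart from the IAPLTR2_Mm element these lie outside annotated genes.

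Apart from the RLTR10C element these held at most 2 WT counts, and between 224 and 2746 Lsh-/- counts. The IAPLTR1_Mm element held 2 WT counts and 2261 Lsh-/- counts, a ratio of 1095 (95% counting interval 303 to 9045). The RLTR10D element held 1 and 2746, a ratio of 2659 (477 to 105066), the largest Lsh-/- count of any of the 8. The IAPLTR2a element held 0 and 1715 counts and was 554-fold higher where a 0 is read as a floor of 3 counts. Its 95% counting interval has no upper end and starts at 450. For loci at 0 in either library this lower end is given as at least. The IAPLTR2b element, with 0 and 1231, was thus at least 323-fold higher and the IAPLTR1a_Mm element, with 0 and 986, at least 258-fold. The IAPLTR2_Mm element held 1 and 475 counts, a ratio of 460 (82.2 to 18205). The RLTR1B element, with 0 and 279, was at least 72.8-fold higher, and the IAPEY_LTR element, with 0 and 224, at least 58.3-fold. The RLTR10C element was read in both libraries, with 43 and 214 counts, a ratio of 4.82 (3.46 to 6.85). In E13.5 embryos the IAPLTR2a element held 1 and 684 counts and the IAPLTR2b element 1 and 317, while the IAPLTR1_Mm element held 0 and 9 and the IAPLTR1a_Mm element 0 and 0.

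For shares by class, the log2 fold change of Lsh-/- over WT was taken where both libraries together gave a locus at least 10 counts, with a small prior count added to each, and a locus was called strongly raised above 5, a limit that follows the study. Of 4969 LTR loci 2103 passed the minimum, and 1269 of them were above 5 (60.3%, 58.2 to 62.4) and 9 below −5. None of the loci above 5 had more than 5 counts in WT, and 1103 had 0, so every one of them passed the minimum through the Lsh-/- library alone. The share is thus a description of where the Lsh-/- library had reads and the WT library few or none, and not support for a change. With a 0 read as 3 counts and a lower limit of 1 on the log2 scale, 78.4% of the 2103 loci were above it. The 382 LTR loci with at least 10 counts in WT alone had a median of −0.20, with 31 above 1 and 80 below −1. None of these 382 was above 5. A set picked on its WT counts leans toward lower ratios, and no matching set picked on Lsh-/- counts is given.

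Repeat names differed widely. IAPEY_LTR, an IAP family known from the mouse Y chromosome, had 61 of 68 listed loci in Lsh-/- fibroblasts only and 0 in WT only, and its summed counts were 22 for WT and 2200 for Lsh-/-. Although only the Lsh-/- line carries a Y chromosome, 64 of these 68 loci are on autosomes, where they held 22 and 2184 counts, and the 3 on Y held 0 and 5. Over all LTR loci the autosomes held 74178 and 183320 counts, X 1027 and 9887 and Y 15 and 735. IAPLTR1a_Mm, the name with the most listed loci of these, went from 321 counts to 30662 over 777 loci, with 612 in Lsh-/- only and 4 in WT only. IAPLTR1_Mm went from 603 to 56102 counts over 663 loci, with 496 and 6. IAPLTR2_Mm went from 361 to 4771, IAPLTR2b from 393 to 5122 and IAPLTR2a from 205 to 3760. These 3 names held fewer counts per kb in Lsh-/- fibroblasts than IAPLTR1_Mm, at 3.15, 6.68 and 7.11 against 13.9, and IAPLTR1a_Mm held 6.57. Outside the IAP names RLTR10D went from 307 to 7012 counts, at 15.4 per kb, with 39.2% of the Lsh-/- counts on its top locus.

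By the share above 5, the 15 LTR names with at least 20 loci past the minimum ran from 94.6% for IAPEY_LTR to 6.06% for RLTR10C. The share was 94.6% of 37 loci (82.3 to 98.5) for IAPEY_LTR, 83.5% of 480 (80.0 to 86.6) for IAPLTR1_Mm and 83.0% of 524 (79.6 to 86.0) for IAPLTR1a_Mm, with overlapping intervals. IAPLTR2_Mm, IAPLTR2b and IAPLTR2a followed at 71.1% of 121, 71.1% of 76 and 70.3% of 37, and the intervals of these 3 overlap each other. With loci at 0 in WT held at their floor, the medians of the 6 IAP names were 3.58 for IAPEY_LTR, 3.76 for IAPLTR1_Mm, 3.5 for IAPLTR1a_Mm, 3.12 for IAPLTR2_Mm, 3.28 for IAPLTR2b and 3.37 for IAPLTR2a, against 2.86 for all 2103 loci. These medians did not set the IAP names apart, since RLTR1B stood at 3.56 and RLTR10D at 3.28. Of the other non-IAP names among the 15, RLTR10A was highest at 2.65.

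Outside the IAPs, the share above 5 was highest for RLTR10D and RLTR10A and lowest for RLTR10C and RLTR15, an order that turned with the reading of a 0 in WT. With a 0 read as 3 counts RLTR1B, at 27.4%, and RLTR46, at 18.2%, stood above RLTR10D at 17.4% and RLTR10A at 10.5%, and RLTR1B also above IAPEY_LTR at 18.9%. RLTR10 names are relatives of the IAPs among the ERVK elements. RLTR10D was above 5 at 58.7% of 46 loci (44.3 to 71.7) and RLTR10A at 47.4% of 38 (32.5 to 62.7), against 22.2% of 27 (10.6 to 40.8) for RLTR10 and 6.06% of 33 (1.68 to 19.6) for RLTR10C. RLTR1B, of the ERV1 class to which murine leukaemia viruses belong, was above 5 at 40.3% of 62 loci, and 39 of its 99 listed loci were read in Lsh-/- only. RLTRETN_Mm, the LTR of the early transposons, was above 5 at 34.9% of 43 loci, RLTR46 at 31.8% of 22, RLTR6_Mm at 21.1% of 38 and RLTR15 at 17.1% of 35. RLTR15 was read about as often in 1 library as in the other, with 18 of 81 listed loci in Lsh-/- only and 16 in WT only. The 128 names with fewer loci were above 5 at 24.4% of 484 loci together, and their summed counts were 57787 for WT and 61326 for Lsh-/-. Medians of RLTR6_Mm, RLTR15, RLTR10C, RLTR10 and RLTR46 were above 0, from 0.45 to 1.21, but turned negative, from −0.86 to −0.07, when the total of the LTR table served as library size.

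**Figure D2:**
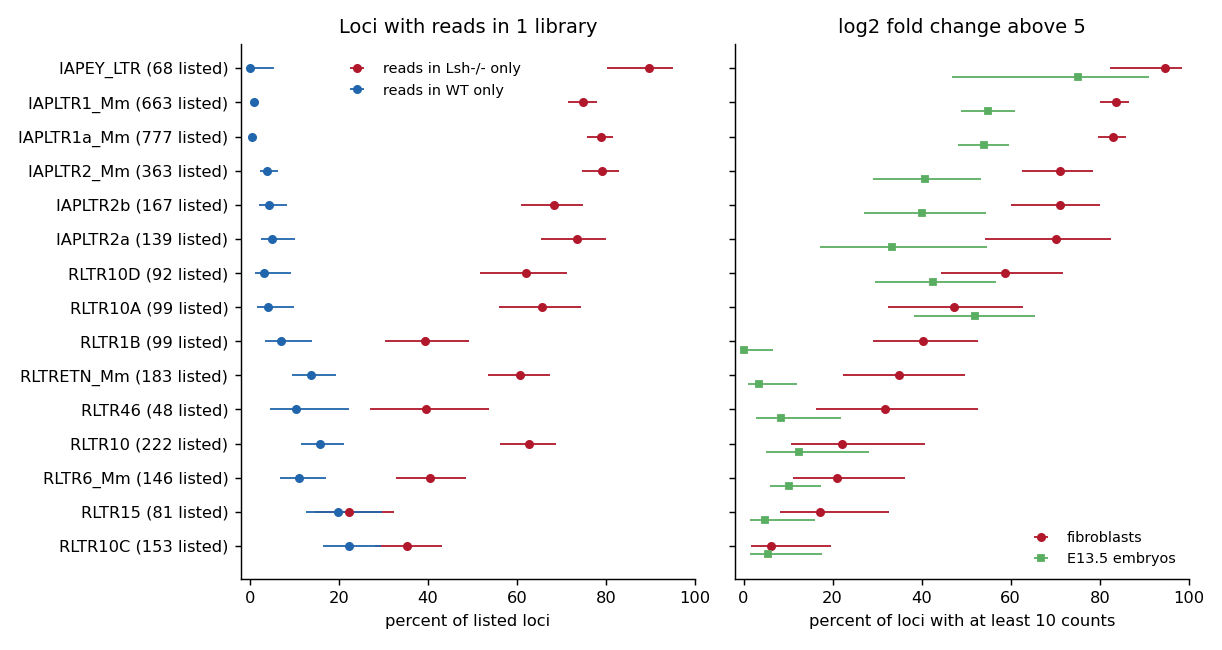
Left, percent of listed loci of each LTR name with reads in Lsh-/- fibroblasts only (red) or in WT only (blue); right, percent of loci with at least 10 counts that were above 5 in fibroblasts (red) and E13.5 embryos (green). Bars are 95% Wilson intervals; the IAP names lead both panels, from 94.6% above 5 in fibroblasts for IAPEY_LTR to 70.3% for IAPLTR2a, and RLTR1B falls from 40.3% in fibroblasts to 0 in embryos.

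In E13.5 embryos 26.5% of 1795 LTR loci were above 5, and most names stood lower than in fibroblasts. IAPLTR1_Mm was above 5 at 54.9% of 253 embryo loci and IAPLTR1a_Mm at 53.9% of 280. RLTR10A was the exception among the 15 names, at 52.1% of 48 loci in embryos and 47.4% in fibroblasts, with overlapping intervals. RLTR1B was above 5 at 0 of 54 embryo loci (upper bound 6.64%) against 25 of 62 in fibroblasts, and RLTRETN_Mm at 2 of 57 against 15 of 43. The difference between the tissues was not tested, since each is 1 pair of libraries.

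The raised counts were spread over many loci in some names and rested on 1 element in others. The 10 LTR loci with the most counts held 19% of the LTR counts of Lsh-/- fibroblasts and 59.8% of those of WT. For IAPLTR1a_Mm the top 10 loci held 17.4% of the Lsh-/- counts and 70 loci were above 100 counts. For IAPLTR1_Mm the top 10 held 26.6% and 121 loci were above 100. In RLTR10D the top locus alone held 39.2% of the name's Lsh-/- counts. In RLTR17 a single element at chrX:86121597-86129015 on the minus strand held 76.5%, with 0 WT and 2088 Lsh-/- counts, at least 548-fold higher. That element and the next 2 were chosen after their values were seen. A RLTR15 element at chr15:20901926-20908310 held 0 and 1428 counts, at least 374-fold, and a RLTRETN_Mm element at chr9:35619912-35625484 held 0 and 890, at least 233-fold. In E13.5 embryos the RLTR17 and RLTR15 elements held 0 counts in both libraries. Of all LTR loci, 407 (8.19%) overlap another listed LTR locus and can share reads, among them 93 of the 1269 above 5.

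Some LTR loci were read mainly in WT. The locus with the most WT counts among those below −5 was a RLTR1B element at chr8:124356745-124365164, in an intron of Gm20388, with 3245 WT and 8 Lsh-/- counts, 419-fold lower (212 to 971). In embryos the same locus held 9534 and 9, so it was low in both Lsh-/- libraries, and it alone made up 81.8% of the RLTR1B counts of WT fibroblasts. A RLTR9A element at chr19:47244581-47248045, over an exon of Gm6970, held 51 and 1 counts. A RLTR4_Mm element at chr11:8820301-8829280, in an intron of Pkd1l1, held 33 and 0, at least 8.73-fold lower. The 2 RLTR4_Mm elements with the most WT counts also held fewer in Lsh-/- fibroblasts. The first, in an intron of Camk2b on chromosome 11, held 9422 and 3535 counts, and the second, on chromosome 5 outside genes, 8533 and 761. The second held 8690 and 6129 in embryos.

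Wider LTR loci were above 5 more often. The share was 6.98% of 43 loci under 1000 bp (2.40 to 18.6), 25% of 152 from there to under 3000 bp, 63.2% of 921 from 3000 to under 6000 bp and 65.5% of 987 of 6000 bp or more. Over all listed loci of these 4 classes, with no minimum, 31.3% of 256, 53.1% of 779, 63.7% of 2139 and 60.2% of 1795 had reads in Lsh-/- only. The order was the same outside the IAP names, at 4.76%, 13.4%, 28.3% and 30.4%, and within the IAP names it ran from 66.7% of 33 loci over 80.4% of 617 to 82.4% of 665 in the 3 wider classes. Wide elements also collect more reads, and the part of read number in these shares was not tested.

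Within IAPLTR1_Mm the widths fall into clusters, and the shorter one held most of the Lsh-/- counts. Only uniquely placed reads are counted, and the part of unique mapping in this contrast was not tested. Many IAPs are full-length elements of about 7 kb and others carry an internal deletion. The 230 IAPLTR1_Mm loci from 5000 to under 5600 bp held 34085 counts in Lsh-/- fibroblasts, 60.8% of the name's total, and the 311 loci from 6800 to under 7400 bp held 14982, 26.7%. Per kb of element this was 28.0 against 6.74 counts, and 16.5 against 5.02 without the 10 loci with the most counts in each class. The median locus held 5.53 counts per kb in the shorter class and 2.68 in the longer. The share above 5 was nearly the same, at 83.4% of 175 and 85.2% of 223. In WT the 2 classes held 254 and 264 counts. IAPLTR1a_Mm had 24 loci from 5000 to under 5600 bp, 267 under 5000 bp and 397 from 6800 to under 7400 bp. The 267 held 6.02 Lsh-/- counts per kb, and the 397 held 55.7% of its Lsh-/- counts at 6.04 per kb. The bounds of these classes were chosen after the widths were seen.

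**Figure D3:**
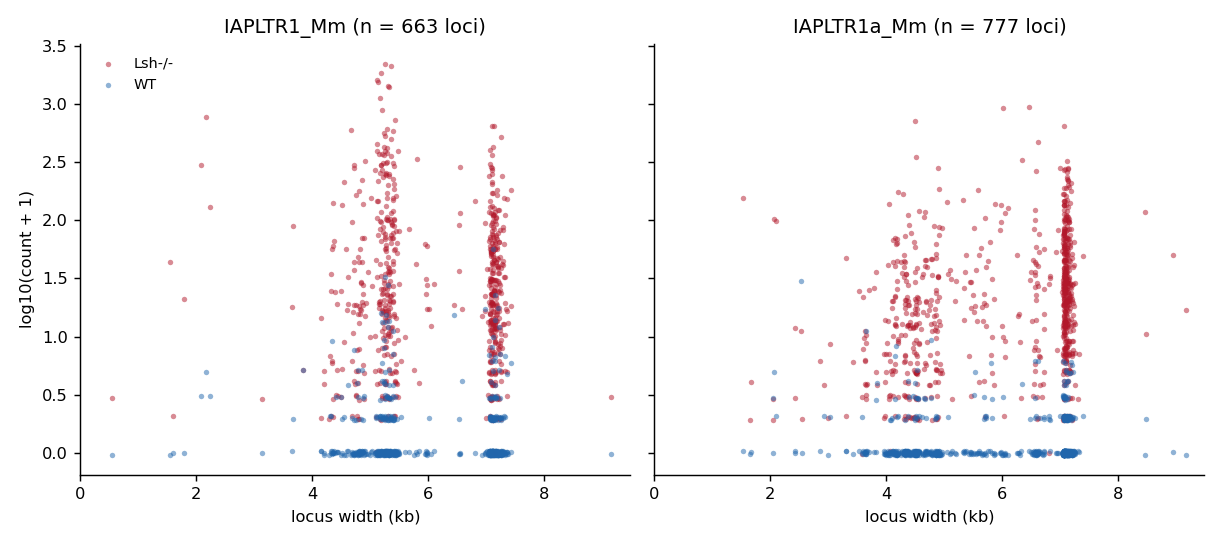
Counts on each IAPLTR1_Mm (left, 663 loci) and IAPLTR1a_Mm locus (right, 777) as log10(count + 1) against locus width in kb, for Lsh-/- (red) and WT fibroblasts (blue), with small random offsets in count. Most WT points lie at 0, and the highest Lsh-/- points of IAPLTR1_Mm, up to 2261 counts, stand in the cluster from 5000 to under 5600 bp and not in that from 6800 to under 7400 bp.

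The share above 5 also followed the CpG content of the first 300 bases of the element. By name, the median CpG per 100 bases was 6.67 for IAPEY_LTR, 5.33 for IAPLTR1a_Mm, 5.0 for IAPLTR1_Mm, 2.67 for RLTR10D, 2.50 for RLTR10A and 1.00 for RLTR10C and RLTR15. Across the 15 names the share above 5 went with the median CpG, at 0.89 by Spearman and 0.90 by Pearson correlation, a description over names that share libraries and descent. Across loci of all names, 17.8% of 219 with under 1 CpG per 100 bases were above 5, 19.2% of 245 with 1 to under 2, 43.0% of 237 with 2 to under 3, 51.6% of 128 with 3 to under 4 and 79.8% of 1258 with 4 or more. Outside the IAP names the shares over the same classes were 17.8%, 17.3%, 34.4%, 40.5% and 40.3%. Within the IAP names there was little contrast, with a median of 5.33 in loci above 5 and 5.0 in the others. The letters TGGTGCCG, found in the primer binding site where reverse transcription of IAPs starts, were searched on the element strand in the first 600 bases. They were found in 40.1% of 4884 LTR loci, 95.1% of IAPLTR1_Mm, 83.4% of IAPLTR1a_Mm and 71.9% of RLTR10C loci and in 0 of 92 RLTR10D loci. Among IAP names, 81.8% of 1042 loci with the letters and 78.2% of 262 without them were above 5. IAPLTR1_Mm and IAPLTR1a_Mm made up 455 and 445 of the 1042, so these pooled shares depend on the mix of names. By name the order went both ways. The share was higher with the letters in IAPLTR1_Mm, at 83.96% against 72.7%, and in IAPLTR1a_Mm. It was lower with them in IAPLTR2_Mm, at 64.7% against 78.8%, and in IAPLTR2a, IAPLTR2b and IAPEY_LTR.

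Where a locus lies relative to genes went with the share above 5. Of LTR loci outside GENCODE genes 71.1% of 1470 (68.7 to 73.4) were above 5, of those in introns 42.1% of 475 (37.7 to 46.6) and of those that overlap exons 15.2% of 158 (10.4 to 21.6). The same order held within IAPLTR1_Mm, at 88.6% of 350 outside genes and 72.2% of 115 in introns, and within IAPLTR1a_Mm, at 87.8% of 427 and 63.7% of 91. Intronic loci of the 2 names were in most cases antisense to the gene, with 230 listed on the opposite strand and 80 on the same, and the shares above 5 were 66.0% of 150 (58.1 to 73.1) and 75% of 56 (62.3 to 84.5), with overlapping intervals. LTR loci in introns held 4.14 WT counts per kb and those outside genes 1.05, and the part of this level in the shares was not tested.

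Across the 19 autosomes the LTR share above 5 ran from 36.1% on chromosome 19 (22.5 to 52.4, 36 loci) to 73.1% on chromosome 14 (63.3 to 81.1, 93 loci), with a median of 60.7%. The summed LTR count was larger in Lsh-/- fibroblasts on 18 of the 19. When each locus was given the share that its repeat name had on the other chromosomes, the autosomes ran from 55.4% to 67.0%, and measured and expected shares correlated over the 19 at 0.74 (Spearman) and 0.70 (Pearson), as a description of 1 pair of libraries. Chromosome 19 lay below its expected 55.6% by more than its interval, as did chromosome 13, at 48.7% of 117 loci against 60.4%. On chromosome 14 the locus with the most Lsh-/- counts was an IAPLTR1_Mm element at chr14:81022408-81027544 on the minus strand, outside genes. It held 0 and 1471 counts, at least 386-fold higher. On chromosome 19 it was a RLTR9D element at chr19:38123312-38131736 over an exon of Cep55, with 260 WT and 185 Lsh-/- counts, 1.45-fold lower (1.20 to 1.76).

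**Figure D4:**
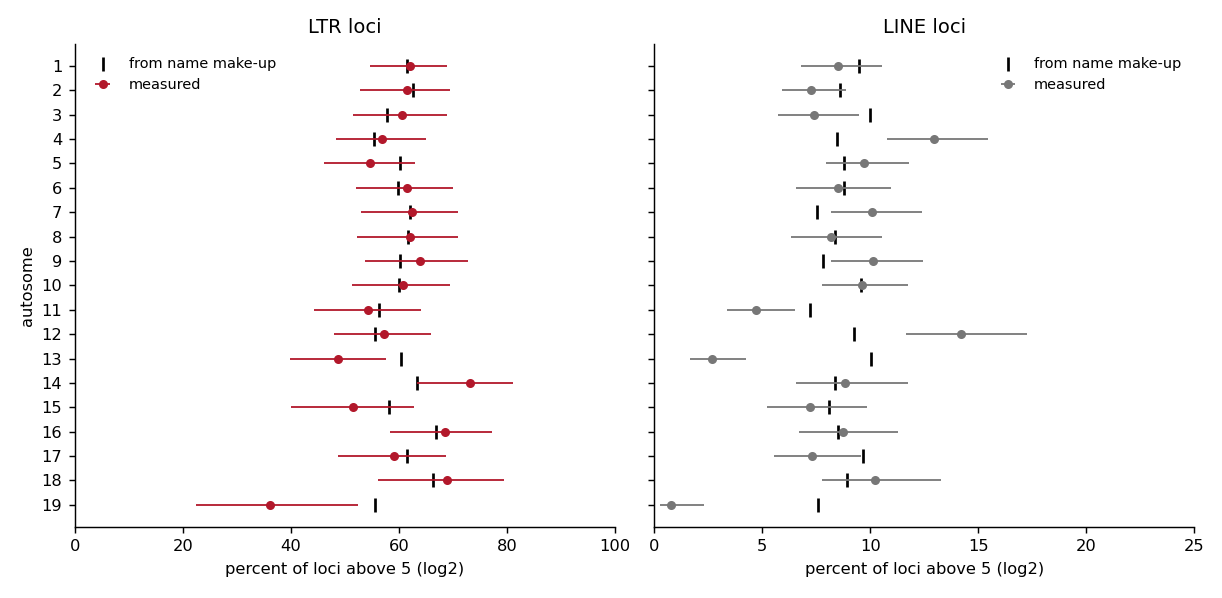
Percent of LTR loci (left) and LINE loci (right) above 5 on each of the 19 autosomes with 95% Wilson intervals, and the percent expected from the share of the same repeat names on other chromosomes (black ticks). LTR shares lie near their ticks apart from chromosomes 13 and 19, while LINE shares run from 0.79% on chromosome 19 to 14.2% on chromosome 12 with ticks between 7.22% and 10.0%.

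LINE loci as a class showed no such rise. Over all LINE loci, summed counts were 477719 for WT and 456109 for Lsh-/-. The 10 LINE loci with the most counts held 20.9% of the WT sum and 6.21% of the Lsh-/- sum, so these sums lean on few loci in WT. Of the 14058 past the minimum, 1228 (8.74%) were above 5 and 146 below −5. With a 0 read as 3 counts, 24.2% were above 1 and 18.3% below −1. In E13.5 embryos 3.09% of 24989 LINE loci were above 5. As for LTRs, none of the 1228 loci had more than 5 counts in WT, and 1209 had 0. The 6580 LINE loci with at least 10 counts in WT had a median of −0.35, with 291 above 1 and 1830 below −1. Picked on WT counts, they too lean toward lower ratios.

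LINE names differed in the share above 5, in an order that changed with the minimum. L1Md_T, L1Md_F, L1Md_F2 and L1Md_A are among the younger mouse LINE-1 families, and were above 5 at 36.4% of 110 loci (28.0 to 45.7), 30.7% of 75, 26.9% of 577 and 25.3% of 75. Lx3A, of the older Lx group, stood at 30.4% of 69. Over all listed loci L1Md_T was above 5 at 6.64%, L1Md_A at 6.34% and L1Md_F2 at 8.15%, against 8.44% for Lx, 11.8% for Lx3A and 12.6% for L1Md_F. With a 0 read as 3 counts L1Md_A and L1Md_F had 0 loci above 5. The older Lx8, the LINE name with the most loci past the minimum, was above 5 at 5.82% of 962, and the ancient L2a, from a family of LINEs that no longer moves, at 0.920% of 652. The summed L1Md_F2 counts were 11328 and 20286. Those of L1Md_T were 44530 and 5994, but 42369 of the WT counts lay on 1 locus at chr13:9831267-9837911, which held 1787 in Lsh-/- fibroblasts, 24.5-fold fewer (23.4 to 25.7), and 3441 and 3516 in embryos. The exon of a microRNA gene, mmu-mir-2134-4, is annotated over it. By width the LINE share above 5 was 6.4% of 11679 loci under 1000 bp, 17.5% of 1781 from there to under 3000 bp, 26.6% of 488 from 3000 to under 6000 bp and 35.5% of 110 of 6000 bp or more.

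The LINE loci with the most Lsh-/- counts, for the 4 names with the most loci above 5, were all outside genes. A L1Md_F2 element at chr10:104237951-104240863 held 0 and 309 counts, at least 80.6-fold higher, and a Lx8 element at chr8:30632657-30633622 held 0 and 543, at least 142-fold. A Lx9 element at chr10:124049091-124049770 held 0 and 196 and was at least 51.0-fold higher. A Lx element at chr4:118578355-118581442 held 3 and 490, a ratio of 158 (53.8 to 770). Of these only the Lx element was read in embryos, at 5 and 71 counts. Below −5, a L1Md_T element at chr16:18532464-18533284 in an intron of Gnb1l held 324 WT and 10 Lsh-/- counts, 33.5-fold lower (18 to 70.4). Lx8 elements at chr10:37055224-37055808 and chr10:37059910-37060801 held 200 and 159 WT counts and 0 in the Lsh-/- library, at least 55.5-fold and 44.0-fold lower. These Lx8 elements lie within 5 kb of each other, the second in an intron of Gm16988.

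Many LINE loci above 5, but not all, lay near strongly raised LTR loci. Their median distance was 53.5 kb, and 284 outside genes and 119 in genes lay over 200 kb away. Of the 1228, 1020 (83.1%) were outside genes, where only 21.2% of the loci past the minimum lie, and 607 (49.4%) were within 50 kb of an LTR locus above 5. Outside genes, the LINE share above 5 was 100% of 33 that overlapped such an LTR locus, 98.0% of 295 up to 10 kb away (95.6 to 99.1), 80.4% of 271 from 10 to 50 kb, 41.4% of 473 from 50 to 200 kb and 14.9% of 1909 farther away (13.4 to 16.5). In genes the shares over the same classes were 60% of 5, 61.9% of 63, 14.3% of 175, 2.32% of 948 and 1.20% of 9886. Outside genes the 33 held 0 WT and 2061 Lsh-/- counts, and the 295 held 29 and 15430. Nearly all of these thus passed the minimum through the Lsh-/- library, so shares near 100% were largely set by the minimum. Over all listed LINE loci outside genes, with no minimum, those up to 10 kb away held 170 WT and 18608 Lsh-/- counts. Those over 200 kb away held 91122 and 87418. Both classes of loci were read in the same pair of libraries, and this comparison was chosen after the values were seen. The LTR loci from which distance was measured were themselves picked by their counts in this pair. LINE loci that share transcripts with them are then high in Lsh-/- by that choice, so the comparison is a description only.

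**Figure D5:**
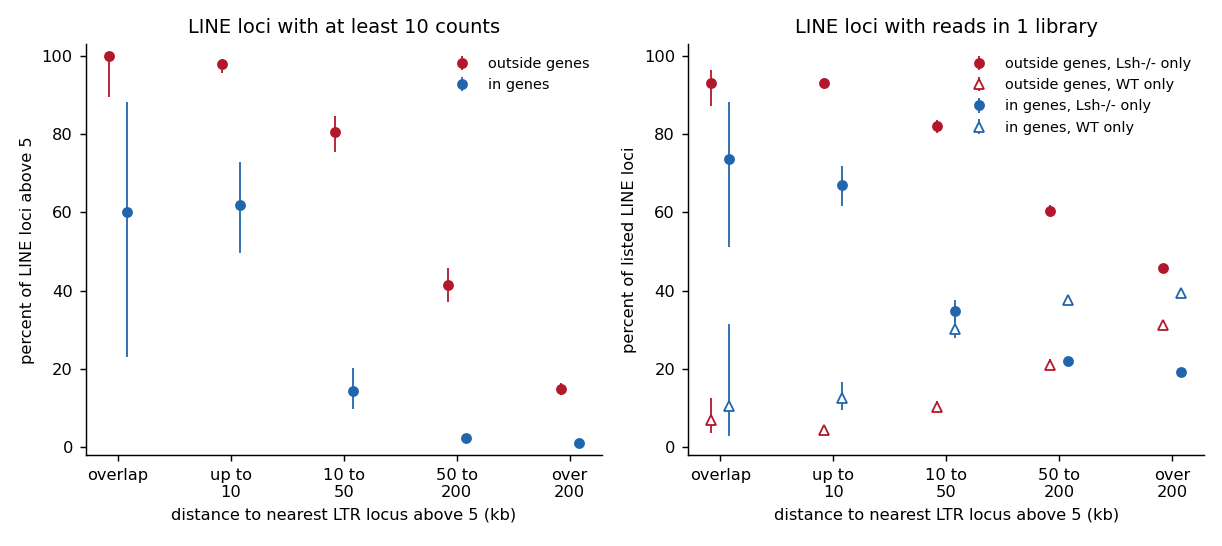
Percent of LINE loci above 5 among those with at least 10 counts (left), and percent of all listed LINE loci with reads in Lsh-/- only (filled) or WT only (open) (right), by distance in kb to the nearest LTR locus above 5, outside genes (red) and in genes (blue), with 95% Wilson intervals. The share outside genes falls from 100% at overlap to 14.9% beyond 200 kb, and in genes from 60% to 1.20%.

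Shares on the 2 sides of the LTR element were as follows, as a description over loci that are linked in runs and not independent. Up to 10 kb away the loci held 16 WT counts downstream and 13 upstream, so these shares too were largely set by the minimum. Up to 10 kb away, 98.7% of 227 LINE loci downstream of the nearest raised LTR locus, read on its strand, were above 5, and 95.6% of 68 upstream. From 10 to 50 kb the shares were 88.7% of 195 downstream (83.5 to 92.4) and 59.2% of 76 upstream (48.0 to 69.6), and from 50 to 200 kb 45.2% of 230 and 37.9% of 243. Downstream loci were also more numerous among those with at least 10 counts in the nearer classes. For the 4 LINE names with the most such loci within 50 kb and outside genes, on either side, 75 of 79 L1Md_F2, 35 of 36 Lx9, 25 of 26 Lx and 21 of 26 L1_Mus3 loci were above 5. Over 200 kb away it was 35 of 121, 17 of 96, 13 of 42 and 10 of 39. The limit set by the minimum applies to the shares by name as well.

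LINE loci above 5 came in runs. Joined over gaps of at most 50 kb they formed 467 runs, of which 255 were single loci and 20 held 10 or more loci, 22.3% of the 1228. The largest, on chromosome 12 from 120817483 to 120937902, held 33 loci with 1 WT and 1806 Lsh-/- counts, and an IAPLTR1_Mm element above 5 lay 2524 bp from the nearest of them. A run of 16 loci on chromosome 10 from 104230765 to 104256197 held 0 and 1532 counts and ended 309 bp from an IAPLTR1_Mm element with 582 Lsh-/- counts. It includes the L1Md_F2 element named above. A run of 17 loci on chromosome 15 from 20866185 to 20901164 lay 761 bp from the RLTR15 element with 1428 counts. A run of 17 loci on chromosome 7 from 13766665 to 13794517, with 0 and 1517 counts, was different, since its nearest LTR locus above 5 lay 1764464 bp away. By autosome the LINE share above 5 ran from 0.79% on chromosome 19 and 2.66% on chromosome 13 to 14.2% on chromosome 12. Over the 19 autosomes its Spearman correlation was 0.90 with the share of LINE loci past the minimum within 50 kb of an LTR locus above 5. Both shares are over the same loci, and 607 of the 1228 loci above 5 count in both. That value is thus in part built in and explains nothing by itself. The correlation with the share expected from repeat names was 0.02. The autosomes share libraries and runs of linked loci.

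The flanking intervals changed less than the LTR elements. Above 5 were 198 of 1562 intervals around LTR loci (12.7%) and 7653 of 116612 around LINE loci (6.56%), again past the minimum of 10 counts. The medians were 0.21 and 0.09. By name the share was 29.2% of 144 around IAPLTR1_Mm, 17.3% of 98 around IAPLTR1a_Mm, 42.9% of 21 around IAPLTR2b and 5.56% of 54 around IAPLTR2_Mm. Flanking intervals around RLTR1B, at 9.52% of 21, and RLTR10C, at 7.14% of 42, were near that of LINE loci.

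Intervals that fall on exons give a partial view of genes, read for each gene through the 1 interval or element with the most counts over the pair. Of 22380 protein-coding genes 14271 had an interval and 11274 had at least 10 counts, and with a 0 read as 3 counts 1904 (16.9%) were above 1 and 553 (4.91%) below −1. The median was 0.19.

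Genes that sense viral nucleic acids or answer interferon were higher in Lsh-/- fibroblasts at 15 of 21 with enough counts and lower at 0, with a median of 1.70. Of the 28 listed, 5 were under the minimum and 2 had no interval. Some of the 21 reached the minimum through the Lsh-/- library, and among the 14 with at least 10 WT counts 8 were above 1 and 0 below −1, with a median of 1.30. Ifih1, the sensor MDA5 for long double-stranded RNA, held 0 WT and 72 Lsh-/- counts. Ddx58, the sensor RIG-I, held 19 and 170, a log2 fold change of 3.12, and Tlr3, an endosomal sensor of double-stranded RNA, 13 and 63, or 2.23. Tmem173, which encodes STING, held 47 and 458, or 3.24. Of the factors that carry the interferon signal, Irf7 held 0 and 38 counts, Irf9 135 and 535 and Stat2 106 and 263. Of the genes that respond, Ifit1 held 3 and 230, Oasl2 0 and 211, Mx2 0 and 18 and Isg15 0 and 10. The rest lay within 1 of 0, among them Mavs at 506 and 564, Irf3 at 235 and 294 and Adar at 352 and 639. With the total over the 6 tables as library size 18 of the 21 were above 1.

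Genes of DNA methylation and repeat silencing that could be read differed little. All 22 with enough counts lay within 1 of 0, of 25 listed, with a median of −0.02. Dnmt1, Dnmt3l and Trim28 had no interval and were not read. Kdm1a, at 241 and 126 counts, lay close to the limit at −0.98, and Cbx3 held 121 and 75, or −0.74. Uhrf1, which brings Dnmt1 to hemimethylated DNA, held 773 and 765 counts, Setdb1, an H3K9 methyltransferase that silences retroviruses, 3040 and 3227, and Dnmt3b, a de novo methyltransferase, 15 and 12. Dnmt3a held 134 and 260, a log2 fold change of 0.91, and Cdca7, a partner of Lsh, 805 and 929. With the total over the 6 tables as library size 4 of the 22 were above 1 and the median was 0.66.

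Germline genes were at or near 0 in WT, and only 6 of the 19 with an interval had at least 10 counts, all of them above 1. Since 5 of these were at 0 in WT they passed the minimum through the Lsh-/- library. Tex101, a testis protein, held 0 and 180 counts, Mov10l1, a helicase of the piRNA pathway, 0 and 38, Tuba3a 0 and 19, Piwil2 0 and 17 and Tex19.1 0 and 11. Ddx4 stayed at 1 and 1, Stra8 at 0 and 2 and Sycp3 at 3 and 4.

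Markers of other cell types also differed. The muscle genes Myod1, Des, Myog, Myh3 and Ttn were all at 0 in WT and at 294, 48, 14, 10 and 8 counts in Lsh-/- fibroblasts. The endothelial Cdh5 held 2 and 73 counts, while Pecam1, Kdr and Tek were at 0 in WT and at 1, 5 and 3 in Lsh-/- fibroblasts. Of 7 epithelial markers 4 had an interval, with Krt18 at 1 and 9 counts, Cdh1 at 0 and 6, Krt5 at 0 and 3 and Epcam at 0 and 1. Of the 7 immune markers Csf1r held 494 and 654, Cd14 219 and 342 and Cd68 45 and 42, and the leukocyte gene Ptprc 1 and 1. The melanocyte genes Mitf and Pmel held 12 and 44 and 3 and 13 counts. Tubb3, of neurons, held 625 and 268 counts. Among the fibroblast markers Postn, a matrix protein, held 1778 and 309 counts and Pdgfra 159 and 72, and Col3a1 684 and 1550. The part of such differences between the lines in the repeat counts was not tested.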

How the data were processed

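The authors prepared paired-end, stranded libraries from RNA of the cells by the dUTP method, mapped the reads to mm9 with TopHat 1.4.0, and joined uniquely placed reads to the repeatmasker annotation. The deposited values are raw counts per locus, with no normalization, and unlisted loci were given 0. Starts are counted from 0 in the tables and from 1 in the text. Unique mapping loses reads of young elements that are nearly identical, so counts understate these, and reads of a longer transcript are counted on each repeat it crosses.

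Library sizes came from TMM in edgeR 4.0.16 (R 4.3.3) over 294240 intervals that flank LINE-1 loci, with effective sizes of 19481559 for WT and 20118423 for Lsh-/- fibroblasts. Log2 fold changes used a prior count of 0.125 and at least 10 counts in the pair. Fold changes and scaling were tested on simulated data. With 1 library per group no test was made. Counting intervals of ratios are exact (Clopper-Pearson). Genes are from GENCODE vM1 and sequences from the mm9 genome (pysam 0.24.0), with 45 LTR loci on unplaced sequences left out of the sequence results. Depth limits what can be read at low counts.

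Loci named are the one with the most Lsh-/- counts above 5 for each of the 8 LTR and 4 LINE names with most such loci, the 3 LTR and 3 LINE loci below −5 with the most WT counts, and the top loci of the autosomes with the highest and lowest LTR share. The members, rules and gene lists were chosen with earlier results of these data known. Alternatives were another prior count, a floor of 3 counts for 0, other library sizes, other minimums, a limit of 1 and autosomes only.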

Additional observations from a re-analysis of the deposited data

Results flagged for a closer look

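For 3 LTR names the median log2 fold change had opposite signs in fibroblasts and E13.5 embryos. RLTRETN_Mm had a median of 2.13 over 43 fibroblast loci, with 29 above 0, and of −0.08 over 57 embryo loci, with 26 above 0. Its summed counts went from 2094 to 4202 in fibroblasts and from 4376 to 3797 in embryos. RLTR10 had a median of 0.82 over 27 fibroblast loci and of −0.05 over 32 embryo loci. RLTR15 had a median of 0.45 over 35 and of −0.01 over 41. The difference between the tissues was not tested, since each is 1 pair of libraries. With the LTR table's own total as library size, the fibroblast medians of RLTR10 and RLTR15 were below 0, at −0.49 and −0.86, and that of RLTRETN_Mm was 0.84.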

How the results depend on the processing

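The number of loci above 5 depended on how a 0 in WT was read. With a prior count of 1 it was 627 LTR loci, 335 LINE loci, 68 intervals around LTR loci and 2392 around LINE loci. With a 0 read as 3 counts it was 359, 95, 20 and 990. With at least 50 counts it was 503 of 755 LTR loci, 201 LINE loci, 41 intervals around LTR loci and 1634 around LINE loci. With all listed loci it was 4779 LINE loci, 467 intervals around LTR loci and 20860 around LINE loci. With a limit of 1 it was 3393, 386 and 21897. The other counts, with other library sizes, autosomes only and, chosen after seeing the data, LTR loci free of overlap or loci outside genes, stayed within 1.5 times of the main value.

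Other library sizes moved the median of all LTR loci by −0.66 (the table's own total) or 0.34 (all 6 tables), and that of LINE loci by 0.11 or 0.67. They kept the share above 5 of 13 of the 15 LTR names and of all 19 autosomes inside its interval. A prior count of 1 moved 10 of the 15 names and all 19 autosomes below it, and a 0 read as 3 counts 13 and 19. Under the latter IAPEY_LTR went from 94.6% to 18.9%, below RLTR1B at 27.4%, so the order of names turned. No paired analysis was possible because each group has 1 library. At this depth a locus at 0 in WT can hold up to 3 counts.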
